A study of Mus musculus with 9 samples.

Results

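The transcripts described here are 33 genes known from granulocytes, macrophages and cells that present antigen on MHC class II, read out in sorted regulatory T cells (Treg cells). They were chosen by symbol, and all 33 were found among the 26683 genes of the count table. By role they comprise 6 genes of primary granules and granulocyte precursors, 2 of eosinophil granules, 8 of secondary granules and mature neutrophils, 3 myeloid transcription factors, 10 macrophage and monocyte genes and 4 class II genes. Granulocytes load their granules in sequence while they mature: primary granule proteins such as myeloperoxidase are transcribed in promyelocytes, secondary granule proteins such as lactoferrin in myelocytes, and mature neutrophils transcribe little of either. Macrophages and dendritic cells carry Fc receptors and display peptides on class II molecules, which B cells also carry and mouse T cells largely lack. In a library from sorted T cells, such transcripts are therefore commonly read as RNA of other cells, although a T cell can transcribe some of them itself.

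Each of the 9 libraries came from the spleen of 1 female mouse, aged 2 to 3 months per the labels, and the sorted cells were CD4+ and positive for a yellow fluorescent Foxp3 reporter. The 5 control mice (WT) were of the strain B6N.Foxp3YFP-Cre, in which the Foxp3 gene drives both the reporter and Cre recombinase. The 4 knockout mice (KO) were labelled EsrrgNf/f.Foxp3YFP-Cre and carried in addition a floxed Esrrg gene, which encodes an orphan nuclear receptor that acts on genes of mitochondrial respiration. All 9 mice thus carried the reporter with Cre, expressed from the Foxp3 gene. Any difference of colony or strain between the 2 sets of mice cannot be told apart from genotype.

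Library totals ran from 15269014 to 17425634 counts, so 3 counts, the most that a count of 0 allows, equal 0.172 to 0.196 CPM (counts scaled to a library total of 1000000). Esrrg itself had 0 counts in each of the 9 libraries, so the targeted gene could not check the labels. KO 4 went against the female label in 1 respect: Xist, the RNA of the inactive X chromosome, had 27 counts there against 27355 to 35693 in the other 8 libraries. Fold changes and group sums are therefore also given without KO 4. The sorted identity was visible in each library, with Foxp3 at 523 to 598 CPM, Cd3e at 489 to 542 CPM and Cd4 at 910 to 993 CPM.

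Promoter sequences are shown first, for the class II and primary granule genes. Class II genes share the Y box, a site for the factor NF-Y (searched as CTGATTGG), whereas primary granule genes are classic targets of the factor PU.1, encoded by Spi1 (core searched as AGGAAGT). Both motifs were searched on both strands in 300 bases of RefSeq sequence on GRCm38.p6, from 250 before to 50 after each start, and 0 members held both. An entry was matched for 24 of the 33 genes. The Y box was in both class II genes with an entry and in 4.1% of all 32851 promoters of that length. The PU.1 core was in 5 of 6 primary granule genes, 2 of 7 secondary granule and neutrophil genes, 2 of 7 macrophage genes and 9.35% of all promoters. The motifs were picked after the promoters were read, and a match describes the sequence without showing that a factor binds. The promoters of H2-Aa (chr17:34287774-34288073, minus strand) and H2-Eb1 (chr17:34305617-34305916, plus strand), which had the same 3 libraries on top, are shown with the Y box in capitals, 51 and 62 bases before the start.
H2-Aa: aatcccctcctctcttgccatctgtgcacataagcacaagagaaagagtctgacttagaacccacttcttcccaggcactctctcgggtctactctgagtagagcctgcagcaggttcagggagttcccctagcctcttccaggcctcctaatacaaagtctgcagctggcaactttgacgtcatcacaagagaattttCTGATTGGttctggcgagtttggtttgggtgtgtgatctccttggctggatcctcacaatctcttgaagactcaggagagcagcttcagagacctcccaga
H2-Eb1: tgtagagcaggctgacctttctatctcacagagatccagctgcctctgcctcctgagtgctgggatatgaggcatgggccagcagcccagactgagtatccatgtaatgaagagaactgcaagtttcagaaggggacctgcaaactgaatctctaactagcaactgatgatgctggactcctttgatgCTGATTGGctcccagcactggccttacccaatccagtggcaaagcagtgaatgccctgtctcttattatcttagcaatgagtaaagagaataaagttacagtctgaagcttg
Those of Mpo (chr11:87793534-87793833, plus strand), Prtn3 (chr10:79879417-79879716, plus strand), Elane (chr10:79886062-79886361, plus strand) and Ctsg (chr14:56102525-56102824, minus strand) are shown with the PU.1 core in capitals, because these 4 genes had similar ratios between KO 4 and KO 1.
Mpo: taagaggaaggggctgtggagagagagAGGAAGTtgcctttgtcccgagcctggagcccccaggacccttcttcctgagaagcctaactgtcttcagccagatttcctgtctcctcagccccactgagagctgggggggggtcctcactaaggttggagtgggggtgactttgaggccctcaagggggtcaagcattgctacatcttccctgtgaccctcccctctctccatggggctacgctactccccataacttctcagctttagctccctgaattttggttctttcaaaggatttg
Prtn3: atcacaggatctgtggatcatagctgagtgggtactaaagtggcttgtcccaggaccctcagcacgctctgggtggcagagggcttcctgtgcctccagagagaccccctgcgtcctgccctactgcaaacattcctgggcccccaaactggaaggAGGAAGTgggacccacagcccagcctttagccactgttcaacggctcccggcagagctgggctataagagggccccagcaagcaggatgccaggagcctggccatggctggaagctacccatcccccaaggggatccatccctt
Elane: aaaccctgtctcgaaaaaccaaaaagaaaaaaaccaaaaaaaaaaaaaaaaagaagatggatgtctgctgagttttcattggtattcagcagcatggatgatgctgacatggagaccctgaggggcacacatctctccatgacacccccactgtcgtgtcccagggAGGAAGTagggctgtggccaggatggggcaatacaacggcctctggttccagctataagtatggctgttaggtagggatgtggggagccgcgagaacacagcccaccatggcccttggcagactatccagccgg
Ctsg: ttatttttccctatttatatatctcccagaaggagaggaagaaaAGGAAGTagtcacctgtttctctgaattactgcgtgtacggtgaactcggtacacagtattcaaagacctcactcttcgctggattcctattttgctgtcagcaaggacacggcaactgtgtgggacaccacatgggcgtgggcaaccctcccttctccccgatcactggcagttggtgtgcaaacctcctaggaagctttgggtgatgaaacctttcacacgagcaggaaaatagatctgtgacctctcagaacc

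Granule transcripts stood far above the rest in KO 1 and KO 4. The 16 granule genes summed to 9.13, 4.55, 11.4, 9.89 and 4.98 CPM in WT 1 to WT 5, and to 89.98, 5.44, 12.2 and 196 CPM in KO 1 to KO 4. The KO 1 and KO 4 values were 11.3 and 24.5 times the WT mean, while KO 2 lay within the WT range and KO 3 just above it. In bulk RNA, fewer cells of a type and less RNA per cell cannot be told apart, so these sums are amounts of RNA and not cell numbers. As sums, macrophage and class II transcripts moved over a much narrower range. The 10 macrophage and monocyte genes summed to 125, 74.6, 67.0, 86.6 and 75.6 CPM in WT and to 168, 76.8, 105 and 184 CPM in KO. The 4 class II genes summed to 82.6, 48.4, 45.4, 58.5 and 46.3 CPM in WT and to 121, 64.6, 65.7 and 159 CPM in KO. WT 1 was the highest WT library in both sums, although its granule sum lay inside the WT range. The most abundant members of these sums, Cybb (45.4 to 101 CPM) and Cd74 (39.1 to 115 CPM), narrow their range. Lyz2 alone ran from 2.85 to 45.9 CPM. The 3 class II genes other than Cd74 summed to 5.93 to 25.7 CPM in WT and to 11.2 to 44.6 CPM in KO.

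**Figure D1:**
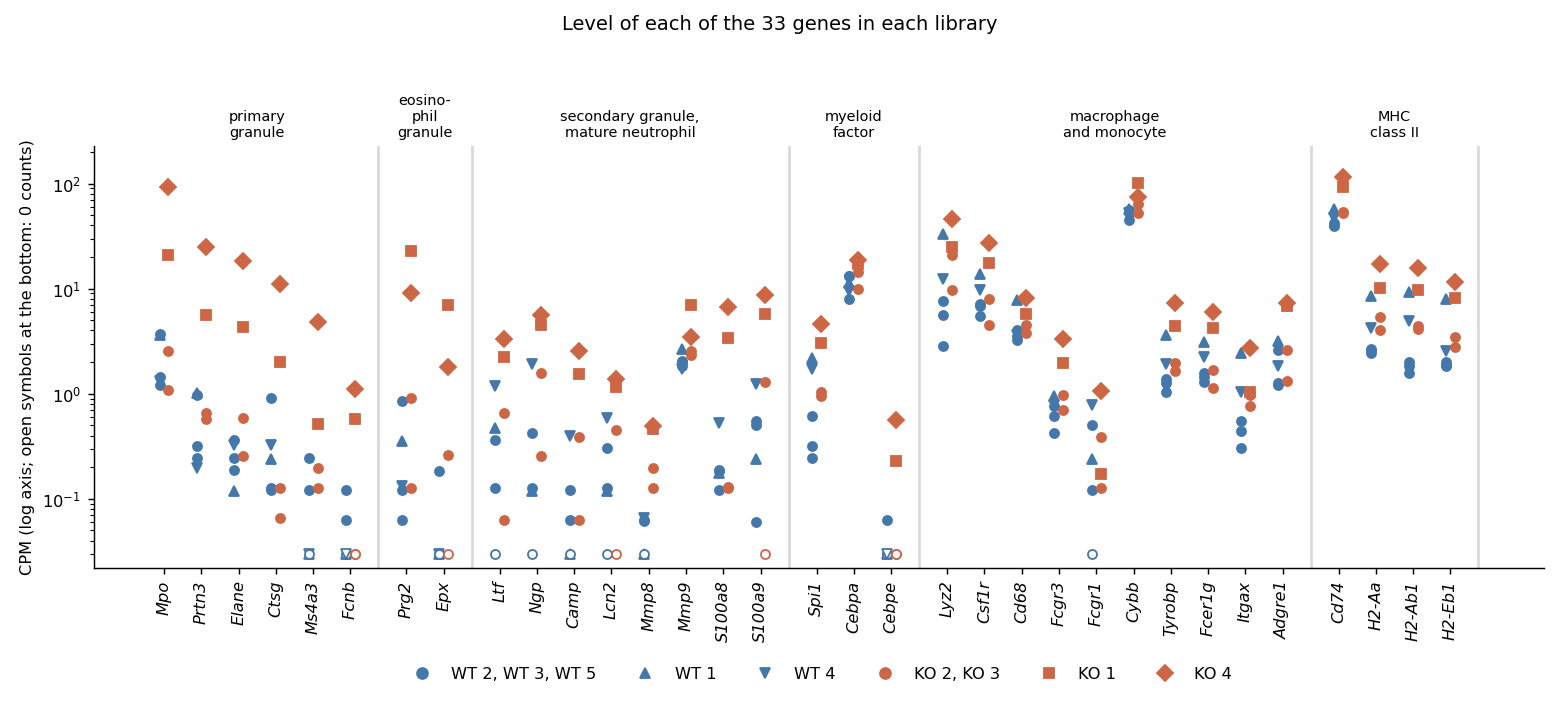
CPM of each of the 33 genes in each library on a log axis, ordered by role; WT libraries are blue and KO libraries red, with own symbols for WT 1, WT 4, KO 1 and KO 4, and open symbols mark 0 counts. KO 4 holds the highest value of 29 genes and KO 1 that of the other 4, while Cybb, Cd74, Cebpa and Cd68 differ by less than 3-fold between the highest and the lowest library.

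The same libraries led for nearly every gene. KO 4 had the highest CPM for 29 of the 33 genes and KO 1 for Prg2, Epx, Mmp9 and Cybb. Both together held the 2 highest values for 29 genes, the exceptions being Lyz2, Cd68, Fcgr1 and Itgax. KO 4 lay above all 5 WT libraries for 33 of 33 genes and KO 1 for 29, against 1 for KO 2 and 8 for KO 3. KO 2 lay inside the WT range for 28 genes and below it for 4. The same counts were not made over all genes, so these have no share to be read against. The members were also chosen with earlier results of these data known.

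**Figure D2:**
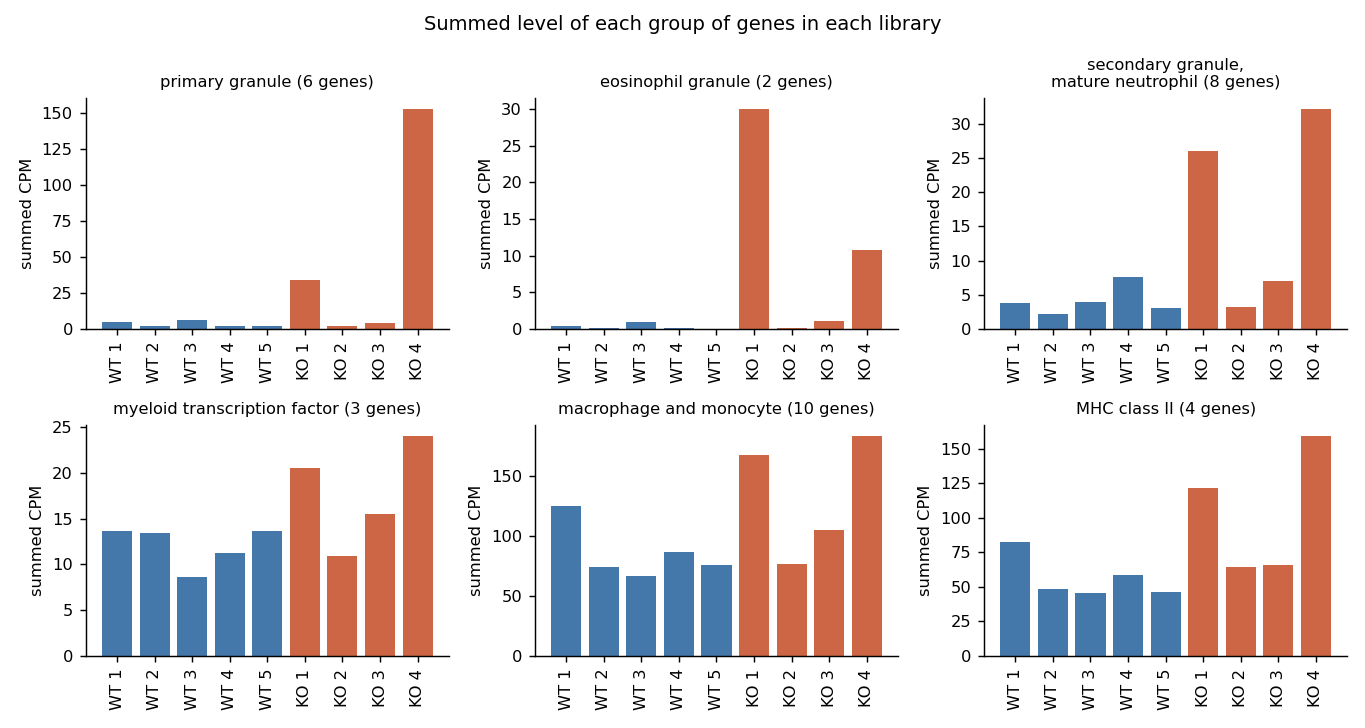
Summed CPM of each group of genes (bars, linear axes from 0, a separate scale in each panel) in the 5 WT libraries (blue) and 4 KO libraries (red). The granule panels are carried by KO 1 and KO 4, with KO 1 above KO 4 only in the eosinophil panel, and the macrophage and class II panels have WT 1 as the next highest library.

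Primary granule genes were led by KO 4. Mpo, which encodes myeloperoxidase (mm10 chromosome 11, 87793581 to 87804413, plus strand), had 61, 24, 61, 20 and 19 counts in WT 1 to WT 5 and 364, 17, 39 and 1495 counts in KO 1 to KO 4. In CPM, KO 4 (92.8) was 41.1 times and KO 1 (20.9) 9.25 times the WT mean of 2.26 ± 1.29 (SD, n = 5), while KO 2 (1.08) lay below every WT library. KO 3 (2.53) lay inside the WT range, so the groups overlapped, with KO 1 and KO 4 alone above every WT library. The serine protease genes Prtn3 (proteinase 3) and Elane (neutrophil elastase) are neighbours on chromosome 10, at 79874476 to 79883174 and 79886247 to 79888215. Prtn3 had 17, 4, 16, 3 and 5 counts in WT and 97, 9, 10 and 400 in KO. Elane had 2 to 6 counts in each WT library and 76, 4, 9 and 293 in KO. Both followed Mpo, and the Mpo counts were 3.75 times those of Prtn3 in KO 1, 3.74 times in KO 4, 3.59 in WT 1 and 3.81 in WT 3. In the other 5 libraries, with 10 or fewer Prtn3 counts each, the ratio ran from 1.89 to 6.67. Ctsg, for cathepsin G, had 4, 2, 15, 5 and 2 counts in WT and 35, 2, 1 and 177 in KO. The precursor genes Ms4a3, a marker of granulocyte and monocyte progenitors, and Fcnb, for the lectin ficolin B, reached 78 and 18 counts in KO 4 and 9 and 10 in KO 1, against at most 4 in any other library. Exons of Mpo and Prtn3 overlap those of Gm11505 and Plppr3 on the opposite strand, and whether the counts were made by strand is not stated.

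Eosinophil granule genes had the reverse order of the 2 libraries. Prg2 (major basic protein, chromosome 2, 84980461 to 84983632) had 6, 2, 14, 2 and 1 counts in WT and 402, 2, 14 and 145 in KO 1 to KO 4. Epx (eosinophil peroxidase) had 3 counts in WT 3 and 0 in the other 4 WT libraries, and 121, 0, 4 and 29 in KO. WT 3 was the highest WT library for both genes, and KO 2 had at most 2 counts of either. Among other eosinophil genes, Ear1 and Ear6, which encode eosinophil-associated ribonucleases of a multigene family, had 0 counts in all 5 WT libraries. Ear1 had 36 counts in KO 1 and 8 in KO 4, and Ear6 had 55 and 4. These paralogues are similar in sequence, so their split between the 2 symbols is uncertain. The receptor gene Siglecf had 7 counts in KO 1 and 8 in KO 4, against at most 3 in the other libraries. Ear2, of the same ribonuclease family, was counted in every library, with 40 counts in KO 1, 19 in KO 4 and 1 to 12 elsewhere. The receptor gene Il5ra did not follow, with 5 counts in WT 1, its highest library, 1 in KO 1 and 2 in KO 4.

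Secondary granule and neutrophil genes were high in KO 1 and KO 4 and, among the controls, highest in WT 4. S100a9, a subunit of calprotectin, had 4, 1, 9, 19 and 8 counts in WT and 101, 0, 20 and 141 in KO, and its partner S100a8 had 3, 2, 3, 8 and 3 in WT and 59, 2, 2 and 107 in KO. Ngp, for neutrophilic granule protein, had 2, 0, 7, 29 and 2 counts in WT and 78, 4, 24 and 90 in KO. KO 1 and KO 4 were thus high for these genes, with KO 4 at 1.96 times KO 1 in CPM for S100a8, 1.51 times for S100a9 and 1.25 times (95% counting interval 0.912 to 1.71) for Ngp. WT 4 and KO 3 came next for Ngp. Ltf (lactoferrin), Camp (cathelicidin) and Lcn2 (lipocalin 2) reached 53, 41 and 22 counts in KO 4 and 39, 27 and 20 in KO 1, with WT 4 the highest control at 18, 6 and 9. Mmp8 (neutrophil collagenase) had at most 8 counts in any library. Mmp9, for gelatinase B, was the exception: it had 26 to 45 counts in each WT library and 122, 40, 36 and 56 in KO, so that KO 4 was 1.69 times the WT mean. Other neutrophil genes varied in level. The surface marker gene Ly6g had at most 2 counts in any library and 0 in KO 4, while Retnlg had 10 counts in KO 1 and 4 in KO 4, and Cxcr2 4 and 6. Hp (haptoglobin) had 48 counts in KO 1 and 68 in KO 4, against 5 to 14 elsewhere. Chil3, also expressed by macrophages, had 38 and 63, with 40 in WT 1 and 2 to 10 in the other 6 libraries. Itgam, an integrin of most myeloid cells, had 110 and 130, against 35 to 99 elsewhere. Csf3r, the receptor for granulocyte colony-stimulating factor, had 21 counts in KO 1 and 64 in KO 4, against 2 to 15 in WT. Not all genes of this list followed. Gfi1, its most abundant gene, had 96.4 CPM in KO 1 but 60.9 in KO 4, against a WT mean of 71.3. Padi4 had 12 counts in KO 1 and 18 in KO 4, against 5 to 15 in WT, and Bpi at most 1 count in any library. Summed over the 14 genes of the list, KO 1 was at 1.43 and KO 4 at 1.14 times the WT mean.

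The makeup of the granule RNA also differed between libraries. Primary granule genes held 78.1% of the 3153 granule counts in KO 4 (95% Wilson interval 76.6 to 79.5) and 37.7% of the 1568 in KO 1 (35.3 to 40.1). Eosinophil genes held 33.4% in KO 1 (31.1 to 35.7) and 5.52% in KO 4 (4.77 to 6.37). In WT 4 the secondary granule genes other than Mmp9 held 59.6% of 151 counts (51.6 to 67.1), against 17.6% of 187 (12.9 to 23.7) in WT 3. The intervals of each of these 3 pairs do not overlap. They cover counting error alone, since no molecular identifiers are mentioned, and genes of different length weigh unequally in such a share. Mmp9 took 45.3% of the 75 counts in WT 2 and 46.5% of the 86 in KO 2, and 1.78% in KO 4.

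**Figure D3:**
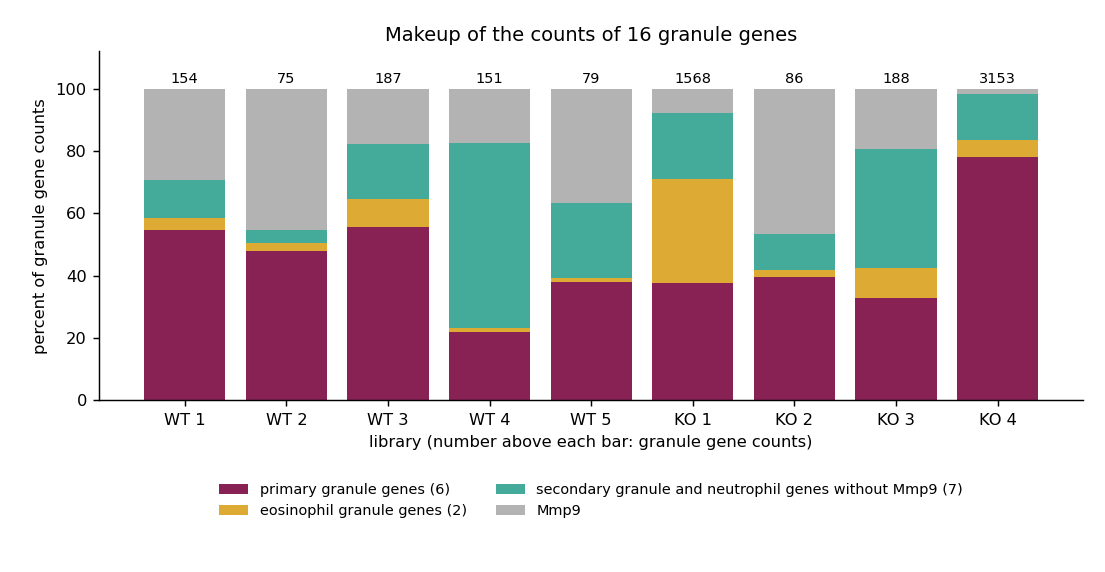
Percent of the counts of the 16 granule genes held by primary granule genes, eosinophil granule genes, secondary granule and neutrophil genes without Mmp9, and Mmp9 (stacked bars, 1 per library, with the total granule counts above). KO 4 is mostly primary granule RNA (78.1%), KO 1 holds the largest eosinophil share (33.4%) and WT 4 the largest secondary granule share (59.6%).

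The 3 transcription factors differed in kind. Cebpa, which encodes a factor needed to make granulocytes, had 193, 218, 132, 146 and 211 counts in WT and 301, 158, 222 and 304 in KO, the highest library being 2.35 times the lowest. Cebpe, needed for secondary granules, had 1 count in all WT libraries together and 4, 0, 0 and 9 in KO. Spi1, for PU.1, had 37, 4, 10, 26 and 5 counts in WT and 53, 15, 16 and 74 in KO. Spi1 was thus high in WT 1 and WT 4 as well as in KO 1 and KO 4, while Cebpa was measured at 8.04 CPM or more in every library. Exons of Cebpa overlap the antisense gene Gm45091, whose reads may be included.

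Macrophage and monocyte genes fell into a steady and an uneven set. Cybb, the heavy chain of the phagocyte NADPH oxidase (chromosome X), had 745 to 960 counts in WT and 1764, 825, 990 and 1204 in KO. Per length, Cybb stood at 9.06 ± 0.80 RPKM (CPM per kilobase of exon, GENCODE M21; SD, n = 5) in WT, close to Lyz2 at 9.31 ± 9.13, whose spread was over 10 times as large. Lyz2, for lysozyme, had 554, 47, 126, 188 and 89 counts in WT and 431, 155, 320 and 739 in KO. WT 1 was second only to KO 4 for Lyz2, although its Mpo count equalled that of WT 3. Csf1r, the receptor for macrophage colony-stimulating factor, had 234, 113, 91, 147 and 114 counts in WT and 307, 72, 123 and 438 in KO. The macrophage marker Adgre1, which encodes F4/80, had 54, 21, 20, 28 and 41 in WT and 120, 21, 40 and 117 in KO. The dendritic cell integrin gene Itgax had 41 counts in WT 1 and 44 in KO 4, against 5 to 18 elsewhere. Fc receptor genes were low: Fcgr3 had 7 to 16 counts in WT and 34, 11, 15 and 54 in KO, and Fcgr1 had 0 to 12 in WT and at most 17 in KO. The signalling adaptor Tyrobp had 61, 21, 17, 29 and 22 counts in WT and 77, 26, 30 and 118 in KO. Fcer1g, the shared Fc receptor chain, had 52, 24, 21, 34 and 25 in WT and 74, 18, 26 and 96 in KO. The endosomal glycoprotein gene Cd68 had 131 counts in WT 1 and 131 in KO 4, 99 in KO 1, and 54 to 71 in the others. For 9 of these 10 genes WT 1 was the highest control, the exception being Fcgr1 (WT 4).

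Class II genes split in the same way into Cd74 and the class II chains. Cd74, the invariant chain that escorts class II molecules, had 960, 688, 642, 715 and 640 counts in WT and 1628, 844, 811 and 1846 in KO. Per length it had the highest mean of the 33 genes in WT, at 26.8 ± 4.33 RPKM (SD, n = 5), followed by Lyz2 and Cybb. The alpha chain gene H2-Aa (chromosome 17, 34282744 to 34287823, minus strand) had 143, 43, 44, 65 and 39 counts in WT and 177, 64, 83 and 276 in KO. Its partner H2-Ab1 had 157, 33, 30, 75 and 25 in WT and 171, 69, 64 and 254 in KO, and the beta chain gene H2-Eb1 had 134, 33, 30, 39 and 30 in WT and 141, 44, 53 and 188 in KO. WT 1 thus nearly reached KO 1 for all 3 chains. The 3 chains together had 0.452 counts per count of Cd74 in WT 1, 0.389 in KO 4 and 0.300 in KO 1, against 0.147 to 0.250 in the other 6 libraries. Relative to each other they moved less, with H2-Aa at 1.07 to 1.67 and H2-Ab1 at 0.833 to 1.92 counts per count of H2-Eb1.

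Some B cell genes had the same libraries on top. Ms4a1, for CD20, had 18 counts in WT 1, 29 in KO 1 and 40 in KO 4, against at most 8 in the other 6 libraries. Cd79a, a chain of the B cell receptor complex, had 36, 38 and 71 counts there, against 5 to 23 in the others. The factor gene Pax5 differed less, with 16 to 31 counts in WT and 20 to 44 in KO, and Ebf1 had at most 6 counts in any library. The complement genes C1qa, C1qb and C1qc of tissue macrophages summed to 5.05 to 10.3 CPM in WT and to 19.2, 3.54, 7.08 and 31.7 CPM in KO. The plasma cell genes Jchain, Sdc1, Mzb1 and Tnfrsf17 summed to 15.2 to 65.3 CPM in WT and to 138, 31.2, 54.6 and 485 CPM in KO. Immunoglobulin genes held 0.101 to 0.151% of counts in WT and 0.296, 0.121, 0.158 and 0.798% in KO. The part of these other cells in the class II and macrophage values was not tested.

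KO 4 and KO 1 could be compared gene by gene, as 2 libraries and not as conditions. KO 4 had 4.51 times the primary granule RNA of KO 1 (95% counting interval 4.12 to 4.94), with 4.44 for Mpo, 4.46 for Prtn3, 4.17 for Elane and 5.47 for Ctsg. These 4 intervals overlap each other, and a difference in ratio among the 4 genes was not tested. Ms4a3 had a ratio of 9.38 (4.69 to 21.3) and Fcnb one of 1.95 (0.852 to 4.72). For the eosinophil genes the ratio was 0.360 (0.302 to 0.428), with 0.390 for Prg2 and 0.259 for Epx. Secondary granule genes without Mmp9 had 1.51 (1.30 to 1.74), the 3 class II chains 1.59 (1.41 to 1.79) and all 10 macrophage genes 1.09 (1.04 to 1.15). Cybb (0.739) and Mmp9 (0.497) were the only members outside the eosinophil group with a ratio under 1. Cybb held 1764 of the 2927 macrophage counts in KO 1 and 1204 of 2958 in KO 4, which lowers the ratio of that sum. The other macrophage genes had ratios from 1.055 (Adgre1) to 6.13 (Fcgr1).

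**Figure D4:**
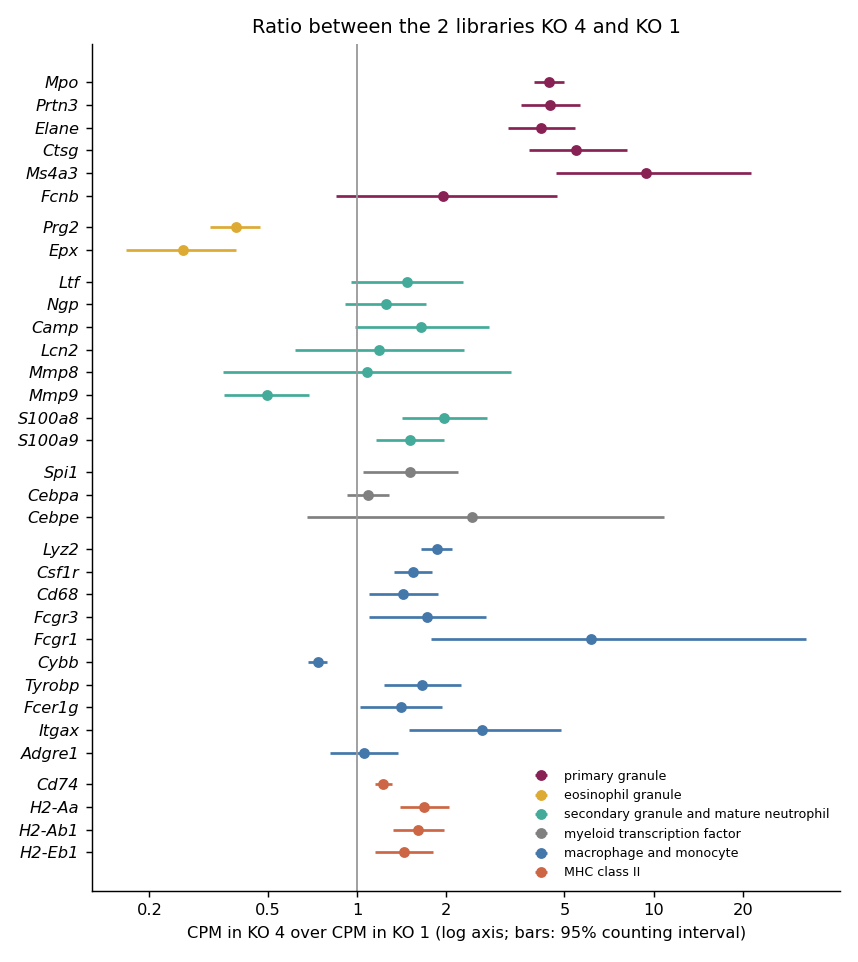
CPM in KO 4 divided by CPM in KO 1 for each of the 33 genes (points, log axis), with 95% counting intervals (bars) and colours by role. Mpo, Prtn3, Elane and Ctsg lie between 4.17 and 5.47, Prg2 and Epx at 0.390 and 0.259, and the class II genes between 1.23 and 1.69.

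Among the 5 controls, 3 different libraries led by role. WT 3 was the highest control for 5 of 6 primary granule genes and both eosinophil genes. For Mpo it had the same 61 counts as WT 1, and for Fcnb it had 2 counts against 1 in WT 5. WT 4 was the highest for all 7 secondary granule and neutrophil genes other than Mmp9. For Mmp8 this came from its smaller library total alone, as WT 3, WT 4 and WT 5 had 1 count each. WT 1 was the highest for 9 of 10 macrophage genes and 4 of 4 class II genes. Many of these counts are under 20, and genes of a role in the same library are not independent observations. The ratio of granule counts to macrophage counts ran from 0.0610 (WT 2) to 0.170 (WT 3) in WT and was 0.536 in KO 1, 0.0709 in KO 2, 0.116 in KO 3 and 1.07 in KO 4.

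Between the genotypes, 22 of the 33 genes could be tested, and 0 of them passed. Over the whole table, edgeR's quasi-likelihood test with Benjamini-Hochberg adjustment called 3.28% of 12738 genes at an adjusted p of 0.05, 1.40% higher and 1.88% lower in KO. Of the 22 members, 9 had an unadjusted p under 0.05, against 21.6% of all genes tested, and limma-voom called 0, against 2.72% of all genes. The filter asks for about 10 counts in at least 4 libraries, so genes that are high in 2 libraries alone, such as Elane, Ctsg, Epx and S100a8, did not enter. All 22 had a positive log2 fold change (KO over WT) with a median of 1.07, against 0.0052 over all genes tested. This contrast was partly set by the filter and by the choice of members. Prg2, Ltf, Ngp and S100a9 reached 10 counts only in KO 1, KO 3, KO 4 and 1 WT library. The members were also chosen with earlier results known. In 0 of the 22 did all KO libraries lie above all WT libraries, against 3.94% of all genes tested. In 0 of the 22 did they all lie below, against 5.16%. Among the 11 members outside the test, Mmp8 alone had all KO libraries above all WT libraries, on 2 to 8 counts in KO and 0 to 1 in WT. DESeq2 called 7 of the 27 members to which it gave an adjusted p, all higher (Cd74, Cybb, Elane, Mpo, Prg2, Prtn3 and S100a8), against 6.99% of the genes it tested. With the bracketed library number as a block, edgeR called Cebpa and Cybb, against 3.48% of all genes, and without KO 2 it called Fcgr3, against 4.21%.

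Single members had large changes with large errors, and many changed in size when 1 library was left out. Prg2 had a log2 fold change of 4.71 ± 1.41 (SE, n = 5 and 4, edgeR adjusted p = 0.119), Prtn3 3.80 ± 1.25 (adjusted p = 0.144) and Mpo 3.67 ± 1.28 (adjusted p = 0.163). Without KO 4, Mpo was at 1.85 ± 0.96 and Prtn3 at 2.03 ± 0.88 (adjusted p of 0.425 and 0.331), while Prg2 was at 4.67. Without KO 1, Prg2 was at 3.40, Mpo at 3.80 and Prtn3 at 3.94. S100a9 stood at 2.93 ± 1.14 (adjusted p = 0.193), Ngp at 2.54 and Ltf at 1.86, and without KO 4 the 3 were at 2.20, 2.06 and 1.22. The smallest adjusted p was that of Fcgr3, at 1.29 ± 0.42 (adjusted p = 0.108), or 0.78 (0.344) without KO 4. Among class II genes, Cd74 was at 0.80 ± 0.26 (adjusted p = 0.142), H2-Aa at 1.15 ± 0.54, H2-Ab1 at 1.10 ± 0.67 and H2-Eb1 at 0.98 ± 0.62. Without KO 4 these were 0.57, 0.67, 0.63 and 0.55, and without WT 1 H2-Ab1 was at 1.73 and H2-Eb1 at 1.65. The other macrophage genes tested ran from 0.31 (Cd68) to 1.15 (Adgre1), with Lyz2 at 1.03 ± 0.74 and Cybb at 0.47 ± 0.18. Without KO 4, Lyz2 was at 0.58, Csf1r at 0.22, Fcer1g at 0.30, Tyrobp at 0.54, Adgre1 at 0.84, Cd68 at 0.066 and Itgax at -0.055. Without WT 1, Lyz2 was at 1.84, Cd68 at 0.62 and Itgax at 1.23, and without WT 3 or WT 5 Itgax was at 0.27 or 0.32. Cybb was at 0.47 without KO 4 and 0.28 without KO 1. Mmp9 was at 0.90, and at 0.43 without KO 1. Spi1 was at 1.23 and Cebpa at 0.44, and without KO 4 at 0.73 and 0.33. The biological coefficient of variation, which measures spread between libraries of a group, was 1.12 for Mpo and 1.26 for Prg2, 0.55 for H2-Aa, 0.27 for Cd74 and 0.18 for Cybb, against a median of 0.083 over all genes tested.

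The direction of many members rested on KO 1 and KO 4. Without both, a choice made with the results known, edgeR called 0 of 22 members, against 0.908% of all genes tested, 0 had an unadjusted p under 0.05, and the median log2 fold change was 0.14. Then 12 members were positive and 10 negative, with Mpo at -0.32 ± 0.59, Prtn3 at 0.15 ± 0.63, Lyz2 at 0.32 ± 0.99 and Cd74 at 0.25 ± 0.15. Without KO 4 alone, 21 of 22 tested members were positive (median 0.65), and without KO 1 alone all 22 tested were (median 0.9999). Without KO 1, KO 4 and WT 1, 18 members were positive and 4 negative, with a median of 0.38. H2-Aa was then at 0.67 ± 0.25, H2-Ab1 at 0.74 ± 0.45 and H2-Eb1 at 0.61 ± 0.24. In that fit Cd74 alone passed, at 0.36 (edgeR adjusted p = 0.0306), against 1.94% of all genes tested.

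**Figure D5:**
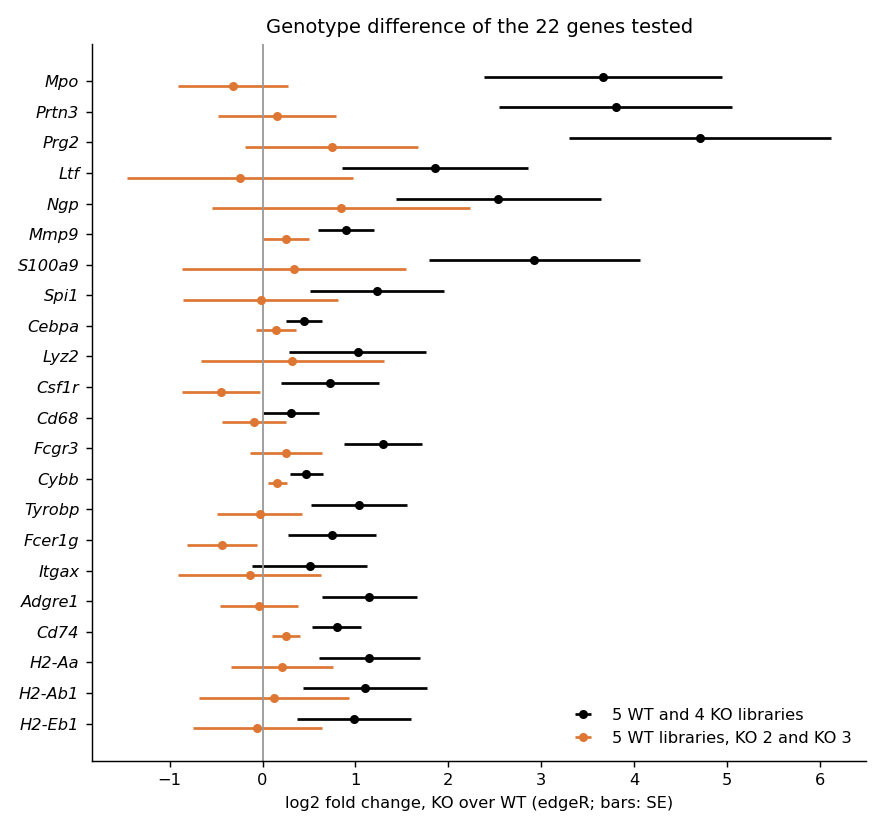
Log2 fold change of KO over WT from edgeR (points) with its SE (bars) for the 22 genes tested, with all 9 libraries (black) and without KO 1 and KO 4 (orange). With all libraries every point lies above 0, and without these 2 libraries 10 of the 22 lie below 0.

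Other genes of the same cells and pathways were counted in 11 lists of 134 genes. Of 14 other neutrophil genes, 8 were tested by edgeR and 1 rose, Pglyrp1, a bactericidal peptidoglycan-binding protein of neutrophil granules, from 29.97 ± 1.505 CPM (SD, n = 5) to 37.5 ± 4.13 CPM (n = 4). Its log2 fold change was 0.32 ± 0.07 (SE, edgeR adjusted p = 0.0289), and it had 460 or more counts in every library. DESeq2 called Pglyrp1 and Hp higher. Among 5 tested progenitor genes 1 fell by edgeR and by DESeq2, Myb, a transcription factor of blood progenitors and early T cells, from 66.4 ± 5.83 to 55.1 ± 2.78 CPM (-0.27 ± 0.07, adjusted p = 0.0441). Of 8 tested plasma cell genes 1 rose by edgeR, Xbp1, a regulator of secretion, from 82.1 ± 2.96 to 97.99 ± 10.2 CPM (0.25 ± 0.06, adjusted p = 0.0324), and DESeq2 called Xbp1, Derl3 and Prdm1 higher. Each of the 3 edgeR calls ended without WT 3, WT 4, WT 5, KO 3 or KO 4 and without KO 1 and KO 4 together (adjusted p of 0.201 for Pglyrp1, 0.114 for Myb and 0.0778 for Xbp1). The Pglyrp1 and Myb calls also ended without KO 1, that of Myb without KO 2 and by limma-voom (0.0576), and that of Xbp1 without WT 1.

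In the other 8 lists 0 genes passed by edgeR or limma-voom, and DESeq2 called 6 genes in 3 of them. Of 16 tested red pulp macrophage and monocyte genes, all were positive with a median of 0.83, 2 had an unadjusted p under 0.05, and the smallest p were those of the chemokine receptor gene Ccr2 (0.60, edgeR adjusted p = 0.0793) and Ly6c2 (1.41, 0.122). DESeq2 called both. The 12 tested genes of class II processing and control had a median of -0.0089, with 6 positive. Of the 12, 3 had an unadjusted p under 0.05, and the smallest p were those of H2-Ob, a chain of the peptide-loading inhibitor DO (-0.22, adjusted p = 0.0866), and Ifi30, a lysosomal thiol reductase (0.37, 0.178). Ciita, the master regulator of class II genes, had 11 to 33 counts in WT and 41, 13, 13 and 29 in KO. Dendritic cell genes (3 tested, 2 with an unadjusted p under 0.05) had Cst3 at 0.26 (0.0865) and Zbtb46 at 0.52 (0.199). Xcr1, Clec9a and Siglech, which define dendritic cell subsets, had at most 16 counts in any library. B cell genes (8 tested, 2 under 0.05) had Pou2af1 at 0.52 (0.193) and Cd79b at 0.24 (0.204). The eosinophil, basophil and mast cell list had 1 tested gene, Ccr3 at 0.65 (0.303, 0 under 0.05). Natural killer and Fc receptor signalling genes (9 tested, 3 under 0.05) had Klrk1 at 1.44 (0.105) and Lyn at 0.73 (0.205). Erythroid and platelet genes (5 tested, 1 under 0.05) had Itga2b at -0.32 (0.216) and Hba-a2 at 0.92 (0.459), while DESeq2 called Klf1, an erythroid transcription factor. T cell and Treg identity genes (12 tested, 7 under 0.05, median 0.07) had Cd5 at 0.13 (0.0549) and Trac at 0.14 (0.0598), and DESeq2 called both and Cd28. Foxp3 was at 0.0027 ± 0.047 (edgeR adjusted p = 0.980), Cd3e at 0.08 (0.193) and Cd4 at 0.06 (0.309).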

How the data were processed

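RNA of sorted splenic Treg cells was sequenced from 5 WT and 4 KO mice, 1 library per mouse, with a stranded TruSeq kit on total RNA, as the labels' protocols state. What the authors deposited is a single gene-by-library table of raw counts, in whole numbers. STAR 2.7, DESeq2 and mm10 are listed, without their use, in the submitters' processing notes. Not given in the sources used here are the program that counted the reads, its annotation and whether it used strand. Samples were grouped by title, and each of the 9 columns matched 1 title. The 33 members, the lists and the rule for named genes (all members, and in each list up to 3 called genes or else the 2 with the smallest p) were chosen with earlier results of these data known. Other list genes given by their counts, and Klf1 and Cd28, were named after their values were seen.

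CPM values were computed from the counts and library totals. The test over all genes was edgeR's quasi-likelihood test (version 4.0.16, R 4.3.3, robust, TMM scaling, filterByExpr with its defaults), with Benjamini-Hochberg adjustment over 12738 genes and a threshold of 0.05. The edgeR test was also tested on simulated data. DESeq2 1.42.0, limma 3.58.1, other scalings and filters, replicate blocks and leaving out libraries were alternatives. Genes were placed and measured with GENCODE M21 on mm10, and 5 members share exon sequence with another gene. Sums over members were given no test.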

Additional observations from a re-analysis of the deposited data

Results flagged for a closer look

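A library was looked at again where the gap to its nearest neighbour within the group, divided by the range of the group, exceeded Dixon's critical value (0.71 for 5 WT and 0.829 for 4 KO libraries). This held for 10 of 86 groups of values. The rate of about 1 in 20 by chance holds for independent, normally distributed values. Low counts of genes from the same libraries are not of that kind, so the 2 rates cannot be compared. In WT 1, H2-Eb1 stood apart at 7.94 CPM against 1.83 to 2.55 in the other WT libraries (0.881), and Cd68 at 7.76 against 3.28 to 4.02 (0.835). In WT 4, Ngp (1.90 CPM against at most 0.426, ratio 0.776) and S100a8 (0.524 against at most 0.189, ratio 0.832) stood apart. In WT 3, Ctsg stood at 0.913 CPM against at most 0.327 (0.740). Epx was counted only in WT 3 and Cebpe only in WT 5 among the controls, on 3 counts and 1 count. Each had a ratio of 1, which a group with counts in 1 library alone always gives. In KO 4, Ms4a3 (4.84 CPM against at most 0.516, ratio 0.917), Itgax (2.73 against at most 1.03, ratio 0.861) and Xist (1.68 CPM against 1731 to 2048, ratio 0.845) stood apart. The granule sums were not among these. In KO, KO 1 and KO 4 were both high, which shortens the gap to the nearest library. KO 4 was still well above KO 1 in the primary granule sum (153 against 33.9 CPM).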

How the results depend on the processing

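The count of genes called over the whole table, 418, was 910 by DESeq2, 26 with a replicate block by title number, 443 with the bracketed number, and 97 (without WT 3) to 697 (without WT 2) when 1 library was left out. It was 118 without KO 1 and KO 4 and 250 without WT 1 as well. Members called were 0 by edgeR, 7 by DESeq2, 2 with the bracketed number as replicate block (Cebpa and Cybb), 0 to 1 when 1 library was left out (Fcgr3 at 1.55 without KO 2, adjusted p = 0.0415) and 1 (Cd74) without KO 1, KO 4 and WT 1. Pairing of the libraries by these numbers was not detected, though so few pairs cannot exclude it. Correlations of same-numbered deviations ran from -0.067 to 0.100 for the title numbers and from -0.260 to 0.099 for the bracketed numbers. By title and by bracketed number, 2 and 1 of 8 libraries were closest to their own number. The median log2 fold change over members stayed between 0.65 and 1.53 when 1 library was left out. It was 0.14 without KO 1 and KO 4, and 0.38 without WT 1 as well.

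Without KO 1 and KO 4, log2 fold changes turned negative for Mpo (-0.32), Ltf (-0.24), Spi1 (-0.019), Csf1r (-0.45), Cd68 (-0.095), Tyrobp (-0.029), Fcer1g (-0.43), Itgax (-0.14), Adgre1 (-0.034), H2-Eb1 (-0.056), Ccr3 (-0.25) and Hba-a2 (-0.98). Without WT 1 as well, Mpo (-0.076), Ltf (-0.19), Csf1r (-0.20), Fcer1g (-0.19) and Ccr3 (-0.16) stayed negative. Itgax ranged from -0.055 (without KO 4) to 1.23 (without WT 1) when 1 library was left out. The choices to leave out KO 1 and KO 4, and WT 1 as well, were made after seeing the data. With the title block, the Pglyrp1, Myb and Xbp1 calls ended (adjusted p of 0.171, 0.175 and 0.175). The log2 ratio of summed CPM, KO over WT, was 3.78 for primary granule genes and -0.18 without KO 1 and KO 4 (-0.024 without WT 1 as well). It was 4.95 for eosinophil genes (0.93 and 0.94), 2.05 for secondary granule and neutrophil genes (0.30 and 0.27), 0.55 for the factors (0.12, and 1.34 without Cebpa), 0.64 for macrophage genes (0.088) and 0.87 for class II genes (0.21). For macrophage and class II genes WT 1, the highest control, was kept in these values. The class II sums of KO 2 (64.6 CPM) and KO 3 (65.7) lay below WT 1 (82.6) and above the other controls (45.4 to 58.5). In the macrophage sums KO 2 had 76.8 and KO 3 105 CPM, against 125 in WT 1 and 67.0 to 86.6 in the other controls. The sums kept their direction under TMM scaling, without immunoglobulin counts, without their most abundant member and without any 1 library. In size, the primary granule ratio was 1.93 without KO 4 and the eosinophil ratio 3.56 without KO 1. Without KO 4 the others were 4.93 (eosinophil), 1.55 (secondary granule), 0.37 (factors), 0.45 (macrophage) and 0.58 (class II). Depth limits the 11 members outside the test, which had under 10 counts in most libraries.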
